A study of Mus musculus with 11 samples.

Results

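The genes described here are 10 immediate early genes of the mouse, Fos, Fosb, Jun, Junb, Egr1, Nr4a1, Dusp1, Ier2, Atf3 and Zfp36, measured in lung by RNA sequencing. They were taken by name from the 23255 genes of the deposited table, and all 10 were among the 16225 genes with a mean of at least 1 that were tested. The 11 libraries came from lungs of C57BL/6 mice. There were 5 libraries from mice that received osimertinib after naphthalene, 3 from mice that received naphthalene alone and 3 from untreated control mice. Osimertinib is an inhibitor of the epidermal growth factor receptor (EGFR) used against lung cancer, and naphthalene injures the club cells of the airway. The labels give no dose, time, age, sex, batch or pooling for any group, and nothing says how the replicates of a group were obtained. The p-values therefore speak for the variation among these libraries, part of which may be technical. The study concerned lung inflammation caused by osimertinib and the part that naive CD4+ T cells play in it.

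Immediate early genes are switched on within minutes of a signal, without any new protein being made first. Growth factor receptors such as EGFR act on many of them through the ERK kinases and the serum response factor, and cyclic AMP and calcium act through the factor CREB. Their messages are short-lived, so their level in a tissue follows recent signalling and also how the tissue was handled. Fos, Fosb, Jun, Junb and Atf3 encode proteins that pair into AP-1 or related transcription factors, Egr1 a zinc finger transcription factor, Nr4a1 an orphan nuclear receptor that T cells and macrophages also use, and Ier2 a nuclear protein. Dusp1, a phosphatase that switches off the JNK and p38 kinases, and Zfp36, which marks inflammatory messages for decay, are the feedback members.

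The stretch of DNA before the start site of several of these genes holds the CREB site TGACGTCA or its 5-letter core TGACG. Of the 8 windows searched, the 3 that hold the core more than 1 time are printed. Each shows the 250 bases before the RefSeq start site (build GRCm38.p6, 5′ to 3′ on the strand of the gene), with every TGACG, or CGTCA where the core lies on the other strand, in capitals.
Fos (chr12:85473640-85473889, plus strand): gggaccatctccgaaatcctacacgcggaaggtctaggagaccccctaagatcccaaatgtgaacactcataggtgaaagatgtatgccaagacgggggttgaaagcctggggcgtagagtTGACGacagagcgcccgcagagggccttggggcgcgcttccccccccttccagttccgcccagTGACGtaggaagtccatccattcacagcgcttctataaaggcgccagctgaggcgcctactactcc
Nr4a1 (chr15:101266596-101266845, plus strand): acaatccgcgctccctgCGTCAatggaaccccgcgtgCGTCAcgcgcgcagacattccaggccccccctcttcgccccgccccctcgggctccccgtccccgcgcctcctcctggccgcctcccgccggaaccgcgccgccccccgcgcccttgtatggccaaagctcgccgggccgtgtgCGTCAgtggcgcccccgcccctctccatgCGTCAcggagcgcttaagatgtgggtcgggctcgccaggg
Dusp1 (chr17:26508473-26508722, minus strand): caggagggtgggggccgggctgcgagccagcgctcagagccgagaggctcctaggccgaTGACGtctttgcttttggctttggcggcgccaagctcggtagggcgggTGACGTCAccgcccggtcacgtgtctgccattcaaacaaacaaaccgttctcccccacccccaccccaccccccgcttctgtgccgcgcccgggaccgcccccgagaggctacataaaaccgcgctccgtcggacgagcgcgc
The window of Fos held the core at 129 and 66 bases before the start, and that of Nr4a1 held 4, at 233, 213, 69 and 40 bases. In Dusp1 the core occurred at 191, 143 and 140 bases, the last 2 of them overlapping on opposite strands in the full palindrome TGACGTCA. Windows of 8 members were searched, all but Egr1 and Ier2. Of these, 6 held the core on either strand (Fos, Fosb, Junb, Nr4a1, Dusp1 and Atf3), against 17.8% of 32851 windows of the same length. The core occurred at least 2 times in 3 of the 8 and in 3.90% of all windows. The full CREB site was found in Dusp1 alone (1.55% of all windows), the AP-1 site TGACTCA in none of the 8 (4.46%), the EGR site GCGGGGGCG in 3 (2.57%), and the TATA letters TATAAA in Fos alone (12.4%). Of the 8, only Zfp36 held the serum response factor's CArG box within these 250 bases (1.47%). DNA farther from the start was not searched, so a site there would be missed. These are matches of letters on both strands and not measured binding.

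The libraries differed in depth, and the difference lines up with the groups. Recovered gene reads ran between 5045361 and 13009975 per library. In naphthalene 1, 2 and 3 and in osimertinib 2, a single gene without a name in the annotation used, ENSMUSG00000119584, took 43.9% to 60.3% of the reads, against at most 0.0337% in the other 7 libraries, and left 2018541 to 2965328 reads for all other genes, against 8418669 to 13006929. Osimertinib 3 stood apart from the other libraries on the first component of all genes (score 72.7, 38.4% of the variance), with naphthalene 3 next (26.2), and the summed signal of 5 neutrophil markers was 396 in osimertinib 3 and 388 in naphthalene 3, against 28.5 to 70.0 in the other libraries. Lung markers were present in every library, with Sftpc of alveolar type 2 cells at 5940 to 17256 and Scgb1a1 of club cells at 1737 to 12579. That read share was high in all naphthalene libraries and low in all controls, so in a difference between these groups it cannot be told apart from naphthalene itself.

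On a scale per length (signal per kilobase of the longest annotated transcript, mean over 11 libraries ± SD), Dusp1 stood first at 69.6 ± 28.3, followed by Jun at 43.9 ± 10.8, Junb at 26.4 ± 5.06 and Zfp36 at 25.4 ± 5.87. Ier2 at 17.8 ± 3.56, Nr4a1 at 16.0 ± 9.64 and Fos at 15.4 ± 6.76 came next, and then Egr1 at 8.26 ± 6.06, Atf3 at 2.42 ± 0.883 and Fosb at 1.18 ± 0.506. Every pair of neighbours in this order overlapped within 1 SD on either side, except Jun and Junb. Fosb and Atf3 were the members with the fewest reads, 11 to 146 and 2 to 110 per library.

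**Figure D1:**
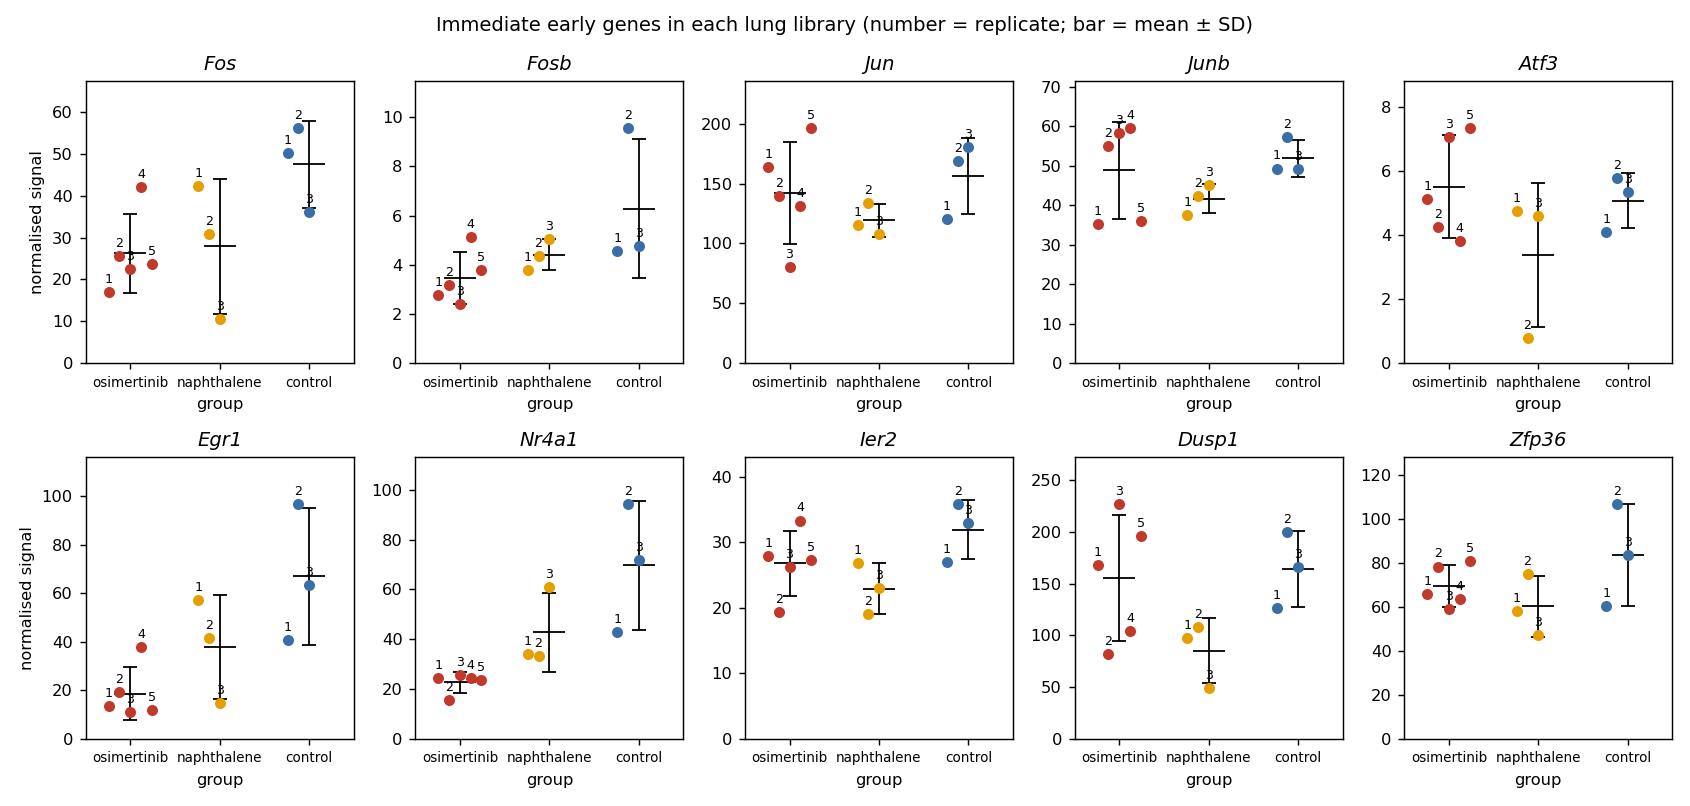
Normalised signal (vertical axis, from 0) of each immediate early gene in 5 osimertinib, 3 naphthalene and 3 control libraries, with replicate numbers above the points and black bars for the mean ± SD of each group. Egr1 and Nr4a1 lie lower in all 5 osimertinib libraries than in any control library, and control 2 is the highest library for 6 of the 10 genes.

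The means of 9 members were lower in both treated groups than in control lungs, and Atf3 was lower with naphthalene alone. The largest differences were those of Egr1 and Nr4a1 in osimertinib lungs and of Dusp1 in naphthalene lungs. Between naphthalene and control lungs all 10 differences were below 0, with a median of -0.55 on the log2(value + 1) scale, where the median of all genes was -0.06 and 62.0% of genes lay below 0. Between osimertinib and control lungs 9 of 10 were below 0 (median -0.25, all genes -0.01). Between osimertinib and naphthalene lungs 7 were above 0 and 3 below (median 0.20, all genes 0.06). With the replicate number as a block, since the numbers of these groups were taken to pair, the median was 0.066 beside 0.056 for all genes, 4 members lay below 0, and Fos turned to -0.16. The median against naphthalene was 0.098 without naphthalene 3, and that against control was -0.41 without control 1 and -0.14 without control 2. Any pair of these comparisons shares the libraries of a group, so they are not independent.

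None of the 10 passed an adjusted p of 0.05 in limma in any comparison. The test called 0% of genes in naphthalene against control, 0% in osimertinib against naphthalene and 0.00616% (1 gene, not a member) in osimertinib against control. The lowest adjusted p of a member was 0.611, 0.297 and 0.313 in these comparisons. At an unadjusted p below 0.05 limma had 4, 2 and 4 of the 10 members, against 1211, 1671 and 779 of the 16225 genes. edgeR called 0, 0 and 1 genes and DESeq2 11, 21 and 75. In naphthalene against control, the libraries of 3 members (Junb, Dusp1 and Ier2) did not overlap, with naphthalene lower, against 11.2% of genes. In osimertinib against naphthalene this held for 1 member, Nr4a1, against 2.12%, and in osimertinib against control for 2, Egr1 and Nr4a1, against 3.43%. An exact permutation test cannot go below 0.1 with 3 libraries against 3, and cannot go below 0.0179 with 5 against 3 (two-sided).

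**Figure D2:**
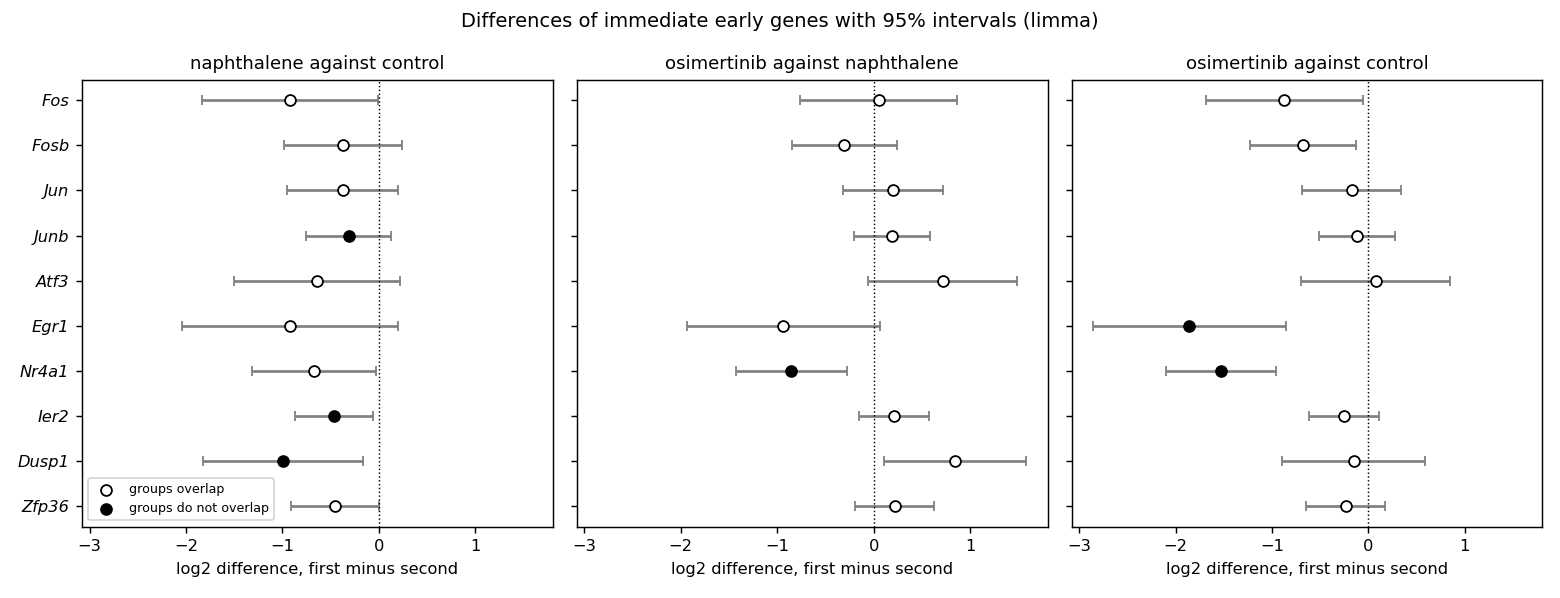
Log2 differences with 95% intervals from limma for the 10 members (rows) in the 3 comparisons, the group named first minus the second, with filled points where the libraries of the groups do not overlap. Nr4a1 and Egr1 have the largest negative values against control, -1.53 and -1.86, and Dusp1 lies at -0.996, 0.84 and -0.15 from left to right.

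Fos, the best known partner of the Jun proteins in AP-1, had values of 17.1, 25.7, 22.5, 42.2 and 23.7 in osimertinib lungs, 42.3, 30.9 and 10.6 in naphthalene lungs, and 50.3, 56.2 and 36.1 in control lungs. Its mean was 26.3 ± 9.48 with osimertinib (SD, n = 5), 27.9 ± 16.1 with naphthalene (n = 3) and 47.5 ± 10.4 in controls (n = 3). Osimertinib 4 and naphthalene 1 reached into the control range, so both treated groups overlapped the controls. The difference was -0.87 for osimertinib against control (SE 0.38, limma adjusted p = 0.964, exact permutation p = 0.0536) and -0.92 for naphthalene against control (SE 0.42, adjusted p = 0.659, exact p = 0.2). Between osimertinib and naphthalene it was 0.05 (95% interval -0.76 to 0.87). Without naphthalene 3, the library with the lowest Fos and 23 reads for it, the difference was -0.51 for osimertinib against naphthalene and -0.36 for naphthalene against control.

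Fosb, the closest relative of Fos, was the least abundant member. Its values were 2.75, 3.18, 2.41, 5.12 and 3.80 in osimertinib lungs, 3.79, 4.35 and 5.05 in naphthalene lungs, and 4.55, 9.56 and 4.75 in control lungs. Control 2 held the highest value, while osimertinib 4 lay inside the control range. The difference for osimertinib against control was -0.68 (SE 0.25, limma adjusted p = 0.871, exact permutation p = 0.0714), and it was -0.37 without control 2.

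Jun, the main partner of Fos and a target of the JNK kinases, had values of 164, 140, 80.5, 132 and 196 in osimertinib lungs, 116, 134 and 108 in naphthalene lungs, and 121, 169 and 180 in control lungs. Osimertinib lungs held both the highest and the lowest library, 196 in osimertinib 5 and 80.5 in osimertinib 3. The differences were -0.17 for osimertinib against control and -0.37 for naphthalene against control, with adjusted p of 0.999 and 0.818 (limma). The difference of osimertinib against control was -0.35 without control 1 and 0.016 without osimertinib 3.
Junb, which often stands in for Jun with weaker activity, spread in another way. Its values were 35.3, 55.1, 58.4, 59.5 and 35.8 in osimertinib lungs, 37.6, 42.3 and 44.97 in naphthalene lungs, and 49.3, 57.2 and 49.1 in control lungs. Osimertinib 1 and 5, the libraries with the highest Jun of their group, had the lowest Junb of all 11. The naphthalene libraries all lay below the controls, by -0.31 (SE 0.20, limma adjusted p = 0.795, exact permutation p = 0.1, the smallest that 3 against 3 allows).

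Atf3, a member of the CREB family that is switched on by cell stress, had values of 5.11, 4.24, 7.04, 3.79 and 7.33 in osimertinib lungs, 4.74, 0.791 and 4.59 in naphthalene lungs, and 4.09, 5.76 and 5.35 in control lungs. The value of 0.791 in naphthalene 2 stood for 2 reads. It was the only member whose mean was higher with osimertinib (5.50 ± 1.61) than in controls (5.07 ± 0.870), by 0.07, with a 95% interval of -0.70 to 0.85. The sign of that difference turned when osimertinib 3, osimertinib 5 or control 1 was left out, with library weights and with equal library totals.

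Egr1 showed the largest difference of any member. Its values were 13.5, 19.1, 11.1, 37.6 and 11.7 in osimertinib lungs, 57.1, 41.5 and 14.7 in naphthalene lungs, and 40.7, 96.8 and 63.2 in control lungs. All 5 osimertinib libraries lay below the lowest control, although osimertinib 4, at 37.6, came close to control 1. The osimertinib mean of 18.6 ± 11.1 was 27.8% of the control mean of 66.9 ± 28.2. The difference was -1.86 (SE 0.46, 95% interval -2.86 to -0.86), the 58th smallest p of 16225 genes, with a limma adjusted p of 0.452 and an exact permutation p of 0.0179, the smallest the design allows. The mean in naphthalene lungs was 37.8 ± 21.5, and the osimertinib and naphthalene libraries overlapped because naphthalene 3 was low (difference -0.94, limma adjusted p = 0.513). That difference was -1.49 without naphthalene 3 and -0.55 without naphthalene 1.

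Nr4a1, which is also called Nur77, set osimertinib lungs apart from both other groups. Its values were 24.4, 15.4, 25.5, 24.3 and 23.7 in osimertinib lungs, 34.1, 33.2 and 61.0 in naphthalene lungs, and 42.8, 94.4 and 71.7 in control lungs. Every osimertinib library lay below every naphthalene and every control library, while naphthalene 3 lay inside the control range. The means were 22.7 ± 4.13 with osimertinib, 42.8 ± 15.8 with naphthalene and 69.6 ± 25.8 in controls, so the osimertinib mean was 32.5% of the control mean and 52.9% of the naphthalene mean. Against control the difference was -1.53 (SE 0.26, 95% interval -2.10 to -0.95, limma adjusted p = 0.313, exact permutation p = 0.0179), with the 4th smallest p of 16225 genes. Against naphthalene it was -0.85 (SE 0.26, 95% interval -1.43 to -0.28, limma adjusted p = 0.297, exact permutation p = 0.0179).

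Whether Egr1 and Nr4a1 count as changed against control depended on the test. DESeq2 called both (adjusted p = 0.0317 for Egr1 and 1.55e-05 for Nr4a1), with 0.204% of genes called lower, and so did limma with a weight for each library (0.0343 and 0.00432, 0.419% called lower). With equal library totals in place of the authors' scaling, limma called 10 members in naphthalene against control, 7 in osimertinib against naphthalene and 3 in osimertinib against control, but it then called 95.6%, 88% and 0.542% of all genes. That scaling moved the median of all genes to -1.46, 1.11 and -0.34 in these comparisons, and relative to it the members' medians were -0.51, 0.23 and -0.27. In osimertinib against naphthalene it turned Nr4a1, Egr1 and Fosb above 0, and relative to all genes they lay at -0.81, -0.92 and -0.48. edgeR called neither (0.36 and 0.16), nor did limma as fitted above. Leaving out 1 library at a time kept Egr1 between -2.17 and -1.55 and Nr4a1 between -1.84 and -1.28, with the smallest size for both when control 2 was left out. Without osimertinib 2, so that no library with the high read share entered on either side, the differences were -1.90 for Egr1 and -1.40 for Nr4a1 (limma adjusted p = 0.825 and 0.444). The naphthalene libraries, which have that share, still entered the estimate of spread behind these p-values.

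Markers of other cells moved in the same libraries. The summed signal of 5 B cell markers, none of them at 0 in any library, was 28.0 to 72.0 in osimertinib lungs, 103 to 146 in naphthalene lungs and 93.4 to 145 in control lungs. The 5 club cell markers summed to 2779 to 9273, 5232 to 9719 and 12085 to 15039 in the same order of groups, and the 5 macrophage markers to 503 to 957, 358 to 559 and 370 to 398. No marker of these 3 lists was at 0 in any library, none passed an adjusted p of 0.05, and their part in the levels of Egr1 and Nr4a1 was not tested. In bulk tissue, fewer cells of a type and less RNA per cell cannot be told apart.

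Ier2, an intronless gene induced with Fos, had values of 27.9, 19.3, 26.2, 33.3 and 27.3 in osimertinib lungs, 26.8, 19.0 and 22.9 in naphthalene lungs, and 27.0, 35.9 and 32.9 in control lungs. The naphthalene libraries lay below the controls by a narrow gap, 26.8 in naphthalene 1 against 27.0 in control 1, with a difference of -0.46 (SE 0.19, limma adjusted p = 0.622, exact permutation p = 0.1). The osimertinib libraries reached into both ranges.

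Dusp1, unlike Egr1 and Nr4a1, had its lowest mean in naphthalene lungs. Its values were 168, 82.1, 227, 104 and 196 in osimertinib lungs, 97.2, 108 and 49.1 in naphthalene lungs, and 126, 200 and 166 in control lungs. The means were 155 ± 61.2, 84.9 ± 31.5 and 164 ± 37.1. Every naphthalene library lay below every control, by -0.996 (SE 0.38, limma adjusted p = 0.611, exact permutation p = 0.1). Osimertinib 1, 3 and 5 lay above all naphthalene libraries, and osimertinib 2 and 4 among them, which gave 0.84 (SE 0.34, limma adjusted p = 0.412, exact permutation p = 0.125). Without naphthalene 3 these differences were -0.65 for naphthalene against control and 0.49 for osimertinib against naphthalene. Against control, osimertinib lungs differed by -0.15, with a 95% interval of -0.89 to 0.59.

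Zfp36 had values of 65.9, 78.4, 59.2, 63.6 and 81.0 in osimertinib lungs, 58.1, 75.2 and 47.3 in naphthalene lungs, and 60.6, 107 and 83.6 in control lungs. All 3 groups overlapped, with naphthalene 3 lowest and control 2 highest. The differences were -0.24 for osimertinib against control and -0.46 for naphthalene against control, with limma adjusted p of 0.999 and 0.668. Without control 2 they were -0.042 and -0.26, and without control 1 the first was -0.45.

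Osimertinib 2 is the only osimertinib library that shares the high read share with the naphthalene libraries, so it can be set beside them without that difference. It lay within the naphthalene range for 5 members (Fos, Egr1, Dusp1, Ier2 and Atf3), above it for 3 (Jun, Junb and Zfp36) and below it for 2 (Fosb and Nr4a1). Of all 16225 genes, 55.7% lay within that range, 23.0% above it and 21.3% below it, so the members were placed much as genes at large were. Dusp1 was 82.1 in osimertinib 2, inside the naphthalene range of 49.1 to 108, while Nr4a1 was 15.4, below the naphthalene range of 33.2 to 61.0. With 1 library on one side there is no test.

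Dusp1, Jun, Junb and Zfp36 overlap a gene on the other strand in the annotation (Ergic1 and Gm8225, Junos, Prdx2 and Gm44710). The kit keeps strand, but the strand setting of the counting is not given in the sources used here, so reads of the neighbour cannot be told apart with certainty. Prdx2 averaged 49.1 and Ergic1 35.3, while Junos, Gm44710 and Gm8225 averaged 2.10, 0.540 and 0.164.

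From library to library the members moved together loosely. Over the 45 pairs of members the median Pearson r of log2(value + 1) was 0.31 (median of all pairs of the 16225 genes 0.017), and 40 of the 45 were above 0 (88.9%, all gene pairs 51.4%). Only 5 pairs reached 0.6, which is 11.1%, against 9.13% of all gene pairs. When each library was taken as its deviation from its group mean, the median was 0.17 (all gene pairs 0.007) and 30 of 45 pairs were above 0 (66.7%, all gene pairs 50.5%). Of these, 6.67% reached 0.6, a smaller share than the 12.3% of all gene pairs. These pairs share the same 11 libraries and are not independent of each other. Among the 7 libraries without the high read share, taken as log2(value + 1) and not as deviations, the median was 0.38, and 31 of 45 pairs were above 0. The 4 libraries with it are too few for a correlation of their own.

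**Figure D3:**
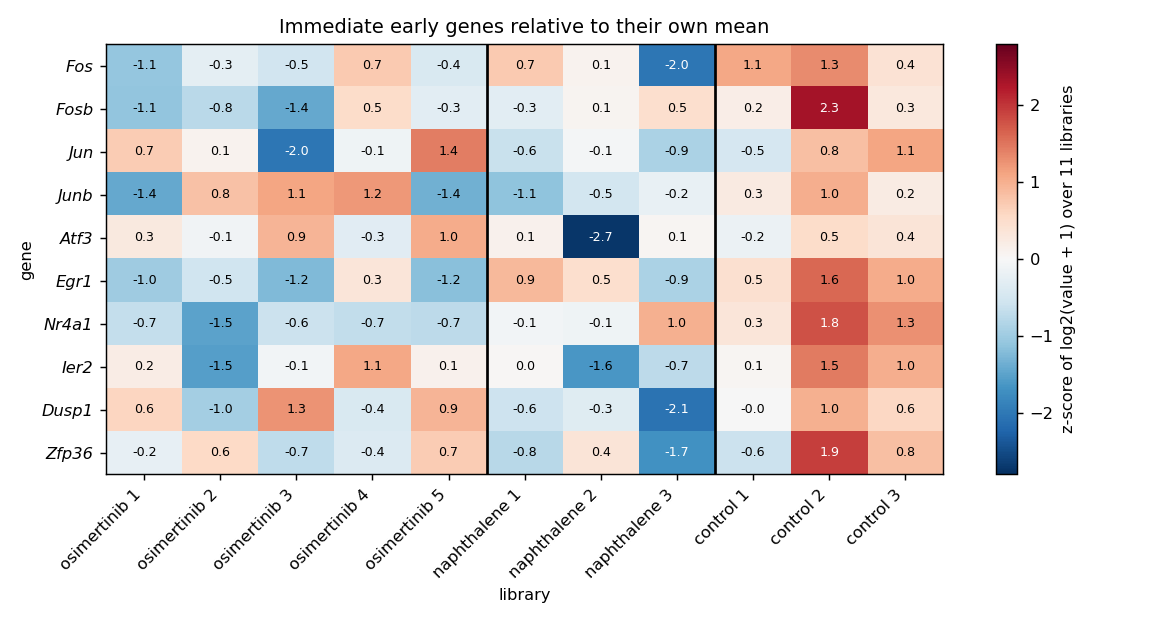
Value of each member (rows) in each library (columns) as a z-score over 11 libraries, red above and blue below the gene's own mean, with black lines between the osimertinib, naphthalene and control libraries. Control 2 and control 3 are above 0 for all 10 genes, and no osimertinib or naphthalene library is above 0 for more than 5.

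A single library carried much of the shared movement. The mean z-score over the 10 members was -0.37, -0.42, -0.33, 0.19 and 0.02 in osimertinib lungs, -0.17, -0.44 and -0.70 in naphthalene lungs, and 0.11, 1.38 and 0.72 in control lungs. Control 2 was the highest of the 11 libraries for 6 members (Fos, Fosb, Egr1, Nr4a1, Ier2 and Zfp36), and control 2 and 3 were above 0 for all 10. Without control 2 the median r over the 45 pairs was 0.09, and without osimertinib 3 it was 0.40. The low end was divided, with naphthalene 3 lowest for Fos, Dusp1 and Zfp36, osimertinib 3 for Fosb, Jun and Egr1, and naphthalene 2 for Atf3 and Ier2.

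By Pearson's r the closest pair was Fos with Egr1 (Pearson r = 0.82, permutation p = 0.00203, adjusted over 45 pairs 0.0913; Spearman rho = 0.80, permutation p = 0.00463, adjusted 0.104). It held without naphthalene 3 and control 2, the 2 libraries farthest from the median of Fos (r = 0.83), among deviations from group means (r = 0.84) and among the 7 libraries without the high read share (r = 0.88). By Spearman's rho the closest pair was Jun with Zfp36, which had r = 0.72 (permutation p = 0.012, adjusted 0.135) and rho = 0.91 (permutation p = 0.00017, adjusted 0.00765), with r = 0.81 without osimertinib 3 and 5 and r = 0.69 in the 7 libraries. It was the only pair of 45 with an adjusted p below 0.05, by Spearman's rho, and no pair had 1 by Pearson's r.

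Fosb joined Nr4a1 (r = 0.77) and Egr1 (r = 0.73), but rho was lower (0.56 and 0.60), and r was 0.64 and 0.45 without control 2 and osimertinib 3. Egr1 and Nr4a1, the pair with the largest differences against control, had r = 0.62 over all libraries and -0.14 among deviations from group means. In the 7 libraries without the high read share r was 0.88. These 7 are osimertinib and control libraries, and neither gene overlapped between those groups, so this r includes the gap between them. Both genes were lowest in control 1 and highest in control 2 among the controls. In naphthalene 3, Egr1 was the lowest of its group (14.7) and Nr4a1 the highest (61.0). Jun and Junb ran in opposite directions (r = -0.34, and -0.62 among deviations), but r was 0.15 without osimertinib 3 and 5. Dusp1 was closest to Zfp36 (r = 0.56) and Ier2 (0.52), and Atf3 to Ier2 (0.54). For Dusp1 with Atf3, r was 0.41 over 11 libraries and 0.94 in the 7 without the high read share, where it was the highest of the 45 pairs and Atf3 rested on more reads. The first component of the 10 members held 39.8% of their variance, with weights above 0 for all 10, and the second held 19.5%, with Dusp1 and Atf3 at its positive end (weights 0.53 and 0.52) and Egr1 and Fosb at the negative end (-0.32 and -0.27).

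**Figure D4:**
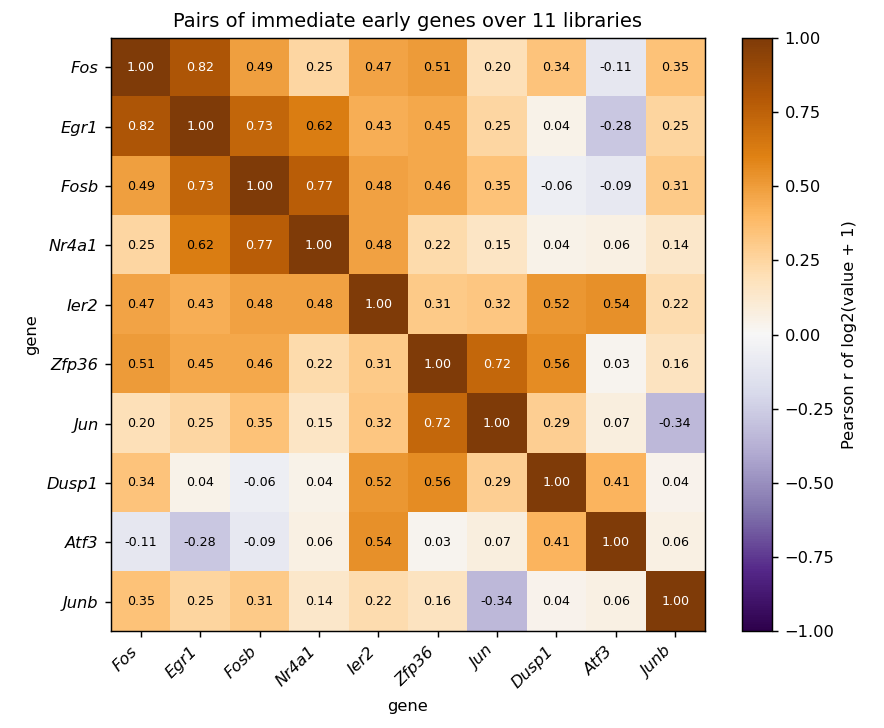
Pearson r of log2(value + 1) over 11 libraries for every pair of members, orange above 0 and purple below. Among Fos, Egr1, Fosb and Nr4a1, r runs from 0.25 (Fos with Nr4a1) to 0.82 (Fos with Egr1), and outside them Jun with Zfp36 reaches 0.72. Atf3 and Junb have the lowest median r with the other members, 0.06 and 0.16.

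Among 11687 genes with a mean of at least 5 that are not members, those whose levels followed the mean z-score of the members most closely were Vps37c (r = 0.92), Ccn1 (0.91), Rnf10 (0.91), Pank1 (0.90), Tnfsf10 (0.89), Pdgfb (0.88), Tmpo (0.87), B4gat1 (0.85), Btg2 (0.85), Dnajc18 (0.85), Adgrl1 (0.85) and Nfatc2 (0.85). They were picked as the highest of 11687 over the same 11 libraries, so these r carry no test. Ccn1, a matrix protein induced by growth factors, and Btg2, an antiproliferative gene, are immediate early genes themselves. Ccn1 had values of 48.5, 36.3, 33.6, 55.2 and 52.0 in osimertinib lungs, 71.0, 54.6 and 34.0 in naphthalene lungs, and 73.7, 159 and 100 in control lungs, with all osimertinib and all naphthalene libraries below the lowest control. At the other end were Bend7 (-0.87), Dpep1 (-0.86), Gm12758 (-0.85), Ankrd17 (-0.84) and Cyp2j6 (-0.83).

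Of the smooth muscle and pericyte markers, 3 of 5 also followed the members (Acta2 with r = 0.74, Tagln with 0.72 and Cnn1 with 0.61), as 4.33% of all genes did at r of at least 0.6. The 5 markers summed to 109 to 156 in osimertinib lungs, 112 to 172 in naphthalene lungs and 131 to 243 in control lungs, with control 2 and 3 highest, and none was at 0. Their part in the shared movement was not tested. Kdr of endothelial cells (r = 0.73) and the upstream genes Mapk9 (0.72), Elk4 (0.71) and Srf (0.68) moved alike.

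The wider immediate early programme followed the mean z-score of the members in part, and none of its genes passed an adjusted p of 0.05 in limma. Among genes with a mean of at least 5, the median r with that score was 0.57 for 6 secreted and matricellular genes, of which Ccn1, Hbegf (0.68) and Thbs1 (0.63) reached 0.6. It was 0.09 for 14 other transcription factors, none of which reached 0.6, and -0.04 for 25 signalling and RNA regulators, of which Btg2 and Dusp4 (0.63) did. The lowest r in these lists, in the same order, were -0.39 for Il1b, -0.68 for Klf10 and -0.46 for Ppp1r15a. Over all genes the median was 0.04. Of 17 other immediate early transcription factors tested, 11 lay below 0 in naphthalene against control (median -0.15), 7 in osimertinib against naphthalene (0.07) and 9 in osimertinib against control (-0.04). Of the relatives of Egr1 and Nr4a1, Egr3 averaged 1.75 ± 0.753 with osimertinib and 3.28 ± 1.27 in controls (difference -0.64, limma adjusted p = 0.963), and Nr4a2 3.62 ± 1.65 and 5.52 ± 0.846 (-0.59, adjusted p = 0.999). Id1, an inhibitor of helix-loop-helix factors, averaged 47.5 ± 24.5 with osimertinib, 27.5 ± 5.67 with naphthalene and 32.0 ± 6.05 in controls. Klf2, a factor of quiescent T cells and endothelium, averaged 126 ± 60.1, 72.8 ± 14.5 and 123 ± 28.5, and like Dusp1 it was high in osimertinib 1, 3 and 5 (161, 171 and 176) and low in osimertinib 2 and 4 (61.1 and 58.7). Maff, a small partner of AP-1 factors, averaged 11.4 ± 1.91 with osimertinib and 7.16 ± 2.03 with naphthalene (0.62, adjusted p = 0.29). In naphthalene against control, Klf10 averaged 42.9 ± 18.9 and 27.5 ± 7.54 (0.57), and Bhlhe40, a repressor of the circadian clock, 41.3 ± 6.91 and 26.9 ± 2.46 (0.59, adjusted p = 0.549).

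Among 27 other signalling and RNA regulators, 22 lay below 0 in naphthalene against control (median -0.11), 9 in osimertinib against naphthalene (0.22) and 16 in osimertinib against control (-0.05). Btg2 averaged 102 ± 17.6 with osimertinib, 89.5 ± 13.3 with naphthalene and 134 ± 27.3 in controls, with differences of -0.38 and -0.56 against control (limma adjusted p = 0.974 and 0.542). Dusp4, a phosphatase that switches off ERK, averaged 6.59 ± 0.568 with naphthalene and 9.49 ± 0.532 in controls (-0.47), and Rhob, a small GTPase, 80.1 ± 5.34 and 116 ± 28.9 (-0.50). Sgk1, a kinase induced by serum and glucocorticoids, averaged 83.5 ± 19.1 with osimertinib, 59.8 ± 7.28 with naphthalene and 60.9 ± 9.80 in controls (0.45 and 0.44, adjusted p = 0.356 and 0.874). Plk3 averaged 5.88 ± 2.90 with osimertinib and 3.56 ± 0.708 with naphthalene (0.52). The clock gene Per1 averaged 68.6 ± 41.1, 49.0 ± 33.0 and 44.9 ± 23.5 in the osimertinib, naphthalene and control libraries, which overlapped.

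Of 10 secreted and matricellular genes tested, 5 lay below 0 in naphthalene against control, 6 in osimertinib against naphthalene and 5 in osimertinib against control. Ccn1 differed by -1.04 between naphthalene and control and by -1.24 between osimertinib and control (limma adjusted p = 0.484 and 0.334). Its relative Ccn2, a target of the YAP and TGF-beta pathways, averaged 65.6 ± 12.4 in osimertinib lungs and 38.2 ± 4.95 in naphthalene lungs (0.75, adjusted p = 0.188). Ptgs2, the inducible cyclooxygenase, averaged 12.9 ± 1.75 with osimertinib, 7.69 ± 4.47 with naphthalene and 12.5 ± 1.87 in controls, and so had its lowest mean with naphthalene, as Dusp1 did. The EGFR ligand Areg averaged 5.58 ± 3.90, 2.58 ± 0.869 and 1.99 ± 0.716, with 12.5 in osimertinib 3. Il1b, made by neutrophils and macrophages, averaged 19.6 ± 25.3, 11.5 ± 9.09 and 6.62 ± 1.01.

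The summed values of the 20 upstream kinases and factors were 1038 to 1112 in osimertinib lungs. They were 1014 to 1060.5 in naphthalene lungs and 1040.5 to 1113 in control lungs. A sum hides movements in opposite directions, and single genes varied more, as Mapk3 did from 97.3 in naphthalene 2 to 183 in osimertinib 3. Egfr itself, the target of osimertinib, averaged 39.1 ± 9.05 with osimertinib, 44.4 ± 4.82 with naphthalene and 37.3 ± 3.00 in controls. Its difference was 0.24 for naphthalene against control (limma adjusted p = 0.845) and -0.20 for osimertinib against naphthalene (limma adjusted p = 0.719). Srf averaged 24.4 ± 3.66 with osimertinib, 20.4 ± 1.55 with naphthalene and 26.9 ± 5.29 in controls. Elk4, a partner of Srf at promoters, averaged 116 ± 17.4, 112 ± 21.4 and 134 ± 11.05. The other named genes of this list were Map2k2 and Rps6ka5 (0.27 and 0.28 in osimertinib against naphthalene) and Mapk9 and Rps6ka1 (-0.15 and -0.16 in osimertinib against control).

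Genes that answer to tissue handling and heat lay mostly higher in osimertinib lungs and were uneven between libraries. All 11 lay above 0 in osimertinib against naphthalene (median 0.45, all genes 0.06). In osimertinib against control 9 lay above 0 and 2 below (median 0.45, all genes -0.01). In naphthalene against control 2 lay above 0 and 9 below (median -0.18, all genes -0.06). The lowest limma adjusted p of this list was 0.363, 0.91 and 0.626 in the same order. Hspa1a, a heat shock chaperone, had values of 8.32, 27.3, 4.54, 5.32 and 39.2 in osimertinib lungs, 3.79, 3.56 and 3.67 in naphthalene lungs, and 4.43, 4.71 and 9.09 in control lungs. Osimertinib 2 and 5 stood out, and Hspa1b, a near copy whose reads may be shared with Hspa1a, gave 22.8 and 53.1 in them. Hspa8 averaged 799 ± 279 with osimertinib and 468 ± 126 with naphthalene (0.74, limma adjusted p = 0.363), Dnaja1 115 ± 39.8 with osimertinib and 74.9 ± 11.5 in controls (0.56, adjusted p = 0.91), and Hspb1 28.5 ± 3.59 with naphthalene and 46.2 ± 10.2 in controls (-0.66, adjusted p = 0.626). The mean z-score of the members was -0.42 in osimertinib 2 and 0.02 in osimertinib 5. Osimertinib 5 was the highest of all libraries for 2 members, Jun and Atf3, and control 2 for 6. The part of this shift and unevenness of the heat shock and handling genes in the members' levels was not tested.

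All 6 glucocorticoid and starvation targets lay above 0 in both comparisons of osimertinib lungs, with medians of 0.78 against naphthalene and 0.63 against control, and none passed an adjusted p of 0.05. Tsc22d3, a mediator of glucocorticoid action, had values of 195, 101, 143, 95.7 and 288 in osimertinib lungs, 59.0, 74.0 and 116 in naphthalene lungs, and 69.7, 98.4 and 138 in control lungs. The osimertinib libraries with the highest Tsc22d3, replicates 1, 3 and 5, were also those with the highest Dusp1 (168, 227 and 196), while naphthalene 3 had the lowest Dusp1 (49.1) and the highest Tsc22d3 of its group. This was noticed in the values, and a link between the genes was not tested. Cdkn1a, the cell cycle inhibitor p21, averaged 42.5 ± 8.93 with osimertinib, 23.5 ± 2.65 with naphthalene and 27.5 ± 6.95 in controls (0.81 against naphthalene, limma adjusted p = 0.188). Angptl4, an inhibitor of lipoprotein lipase, averaged 30.0 ± 8.27, 12.8 ± 10.4 and 14.2 ± 14.0, Zbtb16 68.0 ± 32.4 with osimertinib, 38.5 ± 14.99 with naphthalene and 32.0 ± 17.1 in controls, and Pdk4 7.87 ± 2.18 with osimertinib and 4.72 ± 1.77 in controls.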

How the data were processed

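Per library, total lung RNA was depleted of ribosomal RNA and prepared with a directional kit, per the labels' protocols. Tools listed in the submitters' processing notes, without roles, are Bowtie2, edgeR, RSEM 1.3.0 and Trimmomatic 0.38, and the build is GRCm39. The deposited signal is CPM of a library size adjusted by the authors, per the values, and 100% of values were whole multiples of 1 read (tolerance 0.01), so reads were recovered for alternatives. An exact 0 played no part in the members' values. No library was taken for a duplicate, since the smallest difference within a group was 3.67 times what counting alone gives. Names and transcript lengths came from GENCODE M21 (GRCm38), which named 23123 of 23255 IDs, and promoter windows from RefSeq.

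Genes with a mean of at least 1 were tested as log2(value + 1), a scale that understates the change of low genes, with limma 3.58.1 (R 4.3.3, variance trend, all 3 groups fitted at once with 8 residual degrees of freedom), and p-values were adjusted by Benjamini-Hochberg over all 16225. Exact permutation tests were run per member in R, and correlations used 100000 permutations, with ranks and adjustment from SciPy 1.17.1. In simulated data a small part of the genes was changed 2-fold or 4-fold. Of those changed 2-fold, 41% were called in naphthalene against control, 47% in osimertinib against naphthalene and 41% in osimertinib against control. Of those changed 4-fold, 92%, 91% and 83% were called. Among the 16031, 16040 and 16059 genes tested, 9, 15 and 4 unchanged genes were called. Counts were drawn for each gene alone, without movement shared within a library, so these shares may not hold for these data. edgeR 4.0.16 and DESeq2 1.42.0 on recovered reads were alternatives, as were other pseudocounts (0.1 and 5), filters (none and a mean of 5), scalings, library weights, a replicate block and leaving out each library. In these comparisons 11369, 712 and 83 genes had no adjusted p from DESeq2.

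All members are named, with every list gene among the 3 largest differences of its list in a comparison (cell marker lists are given as sums) and the 12 highest and 5 lowest genes by likeness to the members. Members and lists were chosen with earlier results of these data known. Genes named outside this rule, or singled out for a pattern across libraries, were chosen after their values were seen. Pairing by replicate number was checked from the correlation, across genes, of the deviations of same-numbered libraries from their group means. Between osimertinib and naphthalene it was 0.122, 0.159 and 0.523, all over 0.1, so on the values alone the numbers were taken as a pairing. The 0.523 was that of number 3, whose libraries both stood high in neutrophil markers. Libraries of unlike number were not set beside these, and the labels give no pairing, so the pairing is an assumption. The fit described above holds no block, and the blocked fit is an alternative. The blocked contrast rests on osimertinib 1, 2 and 3.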

Additional observations from a re-analysis of the deposited data

Results flagged for a closer look

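Nr4a1 in osimertinib 2, at 15.35, stood apart from the other 4 osimertinib libraries, of which the nearest was 23.72, and the gap was 0.826 of the range of the group (critical value 0.71 for 5 libraries). This value came from 58 reads, and the library is the one of its group with the high read share. About 1 group in 20 is picked out in this way by chance, and 10 members were looked at in 1 group. The difference of Nr4a1 was -1.40 against control and -0.72 against naphthalene without this library, with limma adjusted p of 0.444 and 0.348, against -1.53 and -0.85 with it.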

How the results depend on the processing

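Of the 248 member values recomputed per comparison, 0 changed sign in naphthalene against control, 10 in osimertinib against naphthalene and 11 in osimertinib against control. Equal library totals, which count the read share of ENSMUSG00000119584, moved the medians of the members to -1.97, 1.34 and -0.61 and the members called to 10, 7 and 3, but then 95.6%, 88% and 0.542% of all genes were called and the median of all genes moved to -1.46, 1.11 and -0.34. It also turned Fosb, Egr1 and Nr4a1 to 0.62, 0.19 and 0.30 in osimertinib against naphthalene and Atf3 to -0.24 in osimertinib against control. Array weights and DESeq2 each called 2 members in osimertinib against control.

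In osimertinib against naphthalene, Fos turned to -0.15 with array weights, -0.16 with the replicate block, -0.16 with edgeR, -0.16 with DESeq2, -0.13 without osimertinib 4, -0.51 without naphthalene 3 and -0.47 without naphthalene 3 and osimertinib 3. In osimertinib against control, Atf3 turned to -0.085 with array weights, -0.011 without osimertinib 3 (and with naphthalene 3 also left out), -0.024 without osimertinib 5 and -0.047 without control 1. Over the libraries left out 1 at a time, Atf3 ran from -0.047 to 0.176 and Dusp1 from -0.328 to 0.052 in this comparison. Dusp1 turned to 0.052 without osimertinib 2 and 0.0035 without control 2, and Jun to 0.016 without osimertinib 3 (and with naphthalene 3 also left out) and 0.069 without osimertinib 2 and 3. The cause of these changes was not tested.

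Leaving out each library gave medians of -0.72 to -0.40 in naphthalene against control, 0.098 to 0.20 in osimertinib against naphthalene and -0.41 to -0.14 in osimertinib against control, with 0 members called throughout. With the replicate block these medians were -0.55, 0.066 and -0.35 (all genes -0.06, 0.056 and -0.015) and 0 members were called. For naphthalene and control (-0.064, 0.20 and -0.093) and for osimertinib and control (-0.038, 0.075 and -0.15) same-numbered libraries did not correlate throughout. The median r of the 45 pairs was 0.17 for deviations from group means, 0.84 with equal totals and 0.44 without osimertinib 2 and 3, and 0.092 to 0.40 with each library left out. A filter at a mean of 5 left 8 members, without Fosb and Atf3. The settings that leave out 2 libraries together were chosen after seeing the data. Depth limits Atf3 and Fosb most, with 2 and 11 reads in naphthalene 2.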
